A study of Mus musculus with 6 samples.

Results

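The 10 genes described here encode the enzymes that release fatty acids from stored fat and the proteins that coat the lipid droplet, and they were taken by symbol (Pnpla2, Lipe, Mgll, Abhd5, G0s2, Plin1, Plin2, Plin4, Plin5 and Cidec) from the 54532 rows of the count table through their Ensembl identifiers. RNA-Seq was performed on whole epididymal fat, the visceral depot beside the epididymis, in 3 samples from ND-fed and 3 samples from HFD-fed mice, to ask how the high-fat diet altered this tissue. All mice of both groups were untreated male C57BL/6J mice. The study's methods give 4.5% fat for the ND and 60% fat for the HFD. They do not say whether these are shares of weight or of energy, so the values may not share a basis. Either diet was given from 4 weeks of age for 16 weeks. The labels number the samples but do not say that each came from a mouse of its own, and if some did not, the p-values measure a spread that is in part technical. Whole fat holds adipocytes, macrophages, endothelial cells and progenitors together, so that in these values fewer cells of a type and less RNA per cell cannot be told apart.

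Adipocytes store triacylglycerol in a large droplet that is covered by perilipins. During fasting, hormones raise cyclic AMP, protein kinase A phosphorylates perilipin 1 and hormone-sensitive lipase, and the coactivator ABHD5 is set free to bind adipose triglyceride lipase, whereas G0S2 binds and inhibits that lipase. Adipose triglyceride lipase, hormone-sensitive lipase and monoacylglycerol lipase then remove the fatty acids in turn, leaving glycerol.

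The promoters of the 3 genes that passed the test of the diets, Plin2, Abhd5 and G0s2, are shown because these genes moved in opposite directions. They are the bases before the RefSeq start on build GRCm38.p6, 5′ to 3′ on the gene's strand, without those bases that lie inside the GENCODE M21 gene (1, 8 and 29 bases, respectively). Capitals mark matches on either strand to 6 short motifs, and where matches overlapped they would be joined. The Plin2 sequence is chr4:86670061-86670309 on the minus strand, the G0s2 sequence is chr1:193273218-193273438 on the minus strand, and the Abhd5 sequence is chr9:122351366-122351607 on the plus strand.
Plin2: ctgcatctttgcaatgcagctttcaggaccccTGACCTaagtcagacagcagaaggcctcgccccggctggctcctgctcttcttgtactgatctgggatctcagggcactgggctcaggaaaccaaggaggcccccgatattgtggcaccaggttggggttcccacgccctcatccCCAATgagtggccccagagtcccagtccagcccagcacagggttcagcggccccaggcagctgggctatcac
G0s2: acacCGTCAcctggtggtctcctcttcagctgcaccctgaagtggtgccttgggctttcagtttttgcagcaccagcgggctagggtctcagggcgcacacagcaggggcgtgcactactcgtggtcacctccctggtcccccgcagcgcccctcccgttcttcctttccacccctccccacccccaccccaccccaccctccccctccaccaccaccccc
Abhd5: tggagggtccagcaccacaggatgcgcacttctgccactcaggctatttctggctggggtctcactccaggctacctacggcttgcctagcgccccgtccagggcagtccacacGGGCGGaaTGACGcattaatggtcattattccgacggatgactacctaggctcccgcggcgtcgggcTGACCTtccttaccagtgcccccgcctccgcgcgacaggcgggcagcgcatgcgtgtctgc

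All 10 genes were found among the RefSeq promoters, with 14 windows of 250 bases. A gene was counted if any of its windows matched, whereas the percentages below are of single windows, so that the units differ. The nuclear receptor hexamer AGGTCA, the core of the elements that PPARγ binds, was present in the windows of Plin2, Abhd5 and Plin5, that is in 3 of the 10 genes and in 14.0% of all 32851 windows. A direct repeat of it, AGGTCANAGGTCA, was in the windows of 0 of the 10 genes and in 0.0335% of all windows. The GC box GGGCGG was in 6 of the 10 genes (32.7% of all windows), among them Abhd5 and G0s2. The match of G0s2 lies in the bases left off above. The cyclic AMP response core TGACG was in 2 of the 10, Abhd5 and G0s2 (17.8% of all windows). The CCAAT box was found in Plin2, Plin4 and Plin5 (33.8% of all windows), the E-box CACGTG in Lipe and Mgll (6.02%), and the TATA box TATAAA in 0 of the 10 (12.4%). Of the 14 windows, 11 hold bases inside the GENCODE M21 gene and 5 lie wholly inside it, among them both windows of Lipe. Counting matches outside the gene alone, the GC box was in 3 of the 10 genes, the CCAAT box in 2 and the E-box in 1, and the other counts were the same. This count was not made over all windows. Such matches describe the letters of these windows and show neither a bound factor nor its absence.

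The libraries held between 16996896 and 18859320 counts, and 3 counts correspond to 0.150 to 0.180 CPM (counts scaled to the TMM-adjusted size of each library), a floor for counting error alone. The 10 genes had between 124 and 50934 counts in a library, and all 10 passed the filter on low counts. The tissue was checked by 13 adipocyte markers, all of them detected, whose summed CPM was 33561 to 45337 on ND and 18001 to 27305 on HFD, led by Lpl and Cfd. Cfd (adipsin) fell from 13470, 15606 and 11746 CPM in ND replicates 1, 2 and 3 to 1158, 2499 and 162 CPM in HFD replicates 1, 2 and 3 (adjusted p = 0.0396 by edgeR). It kept this call in 2 of the 6 edgeR fits that each left out a library, with adjusted p up to 0.145. Without Cfd the sums were 21815 to 29730 on ND and 17839 to 24806 on HFD, which overlap. The ND replicate 3 library stood apart in 9 epithelial and cilium markers, with a summed CPM of 318 against 35.2 to 44.3 in the other libraries, and results that change without it are given below. By edgeR's quasi-likelihood test with Benjamini-Hochberg adjustment, 15.9% of the 15751 genes tested differed between the diets at an adjusted p below 0.05, 9.85% higher and 6.04% lower on HFD.

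Of the 10 genes, 1 rose on HFD (Plin2) and 2 fell (G0s2 and Abhd5), so that 3 of 10 passed, against the 15.9% of all genes. At an unadjusted p below 0.05 it was 1 higher and 4 lower of the 10, against 34.0% of all genes (18.7% higher and 15.3% lower). Plin2, a droplet coat found in most cell types, was 5.94-fold higher on HFD. G0s2, the inhibitor of adipose triglyceride lipase, was 4.18-fold lower, and Abhd5, the coactivator of the same lipase, was 1.98-fold lower. The other 7 did not pass, and 6 of these 7 had estimates below 0. The median log2 fold change of the 10 was -0.40, beside 0.01 for all genes tested. The values of the diets did not overlap for 4 of the 10 (1 higher and 3 lower), and for 40.9% of all genes tested (21.7% higher and 19.1% lower).

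**Figure D1:**
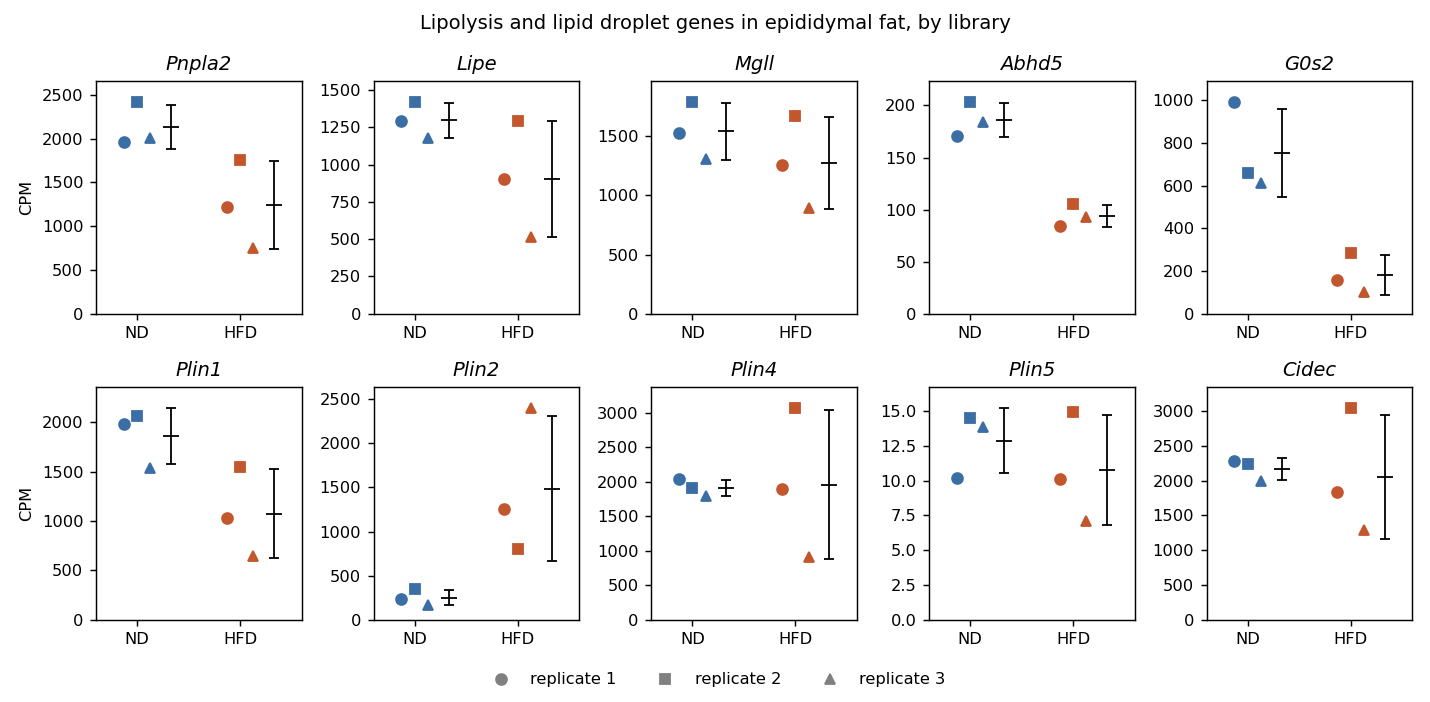
CPM of each of the 10 genes (y axis, from 0, a scale per gene) in the ND and HFD libraries, with circles, squares and triangles for replicates 1, 2 and 3 and with the mean and SD (n = 3) to the right of each group. Plin2 lies higher and Abhd5, G0s2 and Pnpla2 lie lower in every HFD library, and in 9 of the 10 genes HFD replicate 2 is the highest HFD library.

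The lipases were examined in the order in which they act. Pnpla2 encodes adipose triglyceride lipase, which takes the first fatty acid from triacylglycerol (ENSMUSG00000025509, chromosome 7, 141455198 to 141460743 on GRCm38). It had 1964, 2416 and 2010 CPM in ND replicates 1, 2 and 3 and 1222, 1758 and 756 CPM in HFD replicates 1, 2 and 3. Each HFD library was below each ND library, and HFD replicate 3 was the lowest. The log2 fold change was -0.77 (SE 0.32), which did not pass in edgeR's test (adjusted p = 0.135) and did pass in DESeq2's Wald test (adjusted p = 0.0429), by which 1 of the 10 genes was higher and 4 were lower on HFD. By that test 19.1% of all genes differed, 10.7% higher and 8.42% lower.

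Lipe encodes hormone-sensitive lipase, which acts mainly on diacylglycerol (ENSMUSG00000003123, chromosome 7, 25379527 to 25398710). Its CPM was 1291, 1420 and 1180 on ND and 901, 1292 and 514 on HFD, and the diets overlapped because HFD replicate 2 was at the level of ND. The log2 fold change was -0.52 (SE 0.33, adjusted p = 0.302 by edgeR). Mgll encodes monoacylglycerol lipase, which releases the last fatty acid and glycerol (ENSMUSG00000033174, chromosome 6, 88724412 to 88828360). It had 1526, 1788 and 1310 CPM on ND against 1258, 1672 and 896 on HFD. Again the diets overlapped, and the log2 fold change was -0.27 (SE 0.27, adjusted p = 0.514 by edgeR). The estimates of the lipases became smaller in the order of their action, and the steps between them are tested as ratios below.

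The partners of adipose triglyceride lipase were both lower on HFD. Abhd5 (ENSMUSG00000032540, chromosome 9, 122351608 to 122381524) had 171, 203 and 184 CPM on ND against 83.8, 105 and 92.4 on HFD. The libraries of a diet lay close together, since the highest was 1.19 times the lowest on ND and 1.26 times on HFD. Its log2 fold change was -0.99 (SE 0.14, adjusted p = 0.00853 by edgeR), and the call held whichever library was left out. G0s2 (ENSMUSG00000009633, chromosome 1, 193272161 to 193273217) had 991, 658 and 612 CPM on ND against 156, 285 and 100 on HFD. ND replicate 1 was the highest library and HFD replicate 3 the lowest, without overlap between the diets. The log2 fold change was -2.06 (SE 0.40, adjusted p = 0.0190 by edgeR). Without ND replicate 1, ND replicate 2 or HFD replicate 1 the adjusted p was 0.0686, 0.0603 and 0.0891, respectively, with log2 fold changes of -1.82, -2.15 and -1.99.

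Next, the droplet coats were examined. Plin1 encodes perilipin 1, the main coat of the adipocyte droplet, which holds ABHD5 until it is phosphorylated (ENSMUSG00000030546, chromosome 7, 79720218 to 79732903). Its CPM was 1978, 2059 and 1537 on ND and 1028, 1548 and 645 on HFD. HFD replicate 2 lay just above ND replicate 3, so that the diets overlapped in these libraries alone. The log2 fold change was -0.79 (SE 0.33) and did not pass in edgeR's test (adjusted p = 0.142), whereas DESeq2's Wald test gave an adjusted p of 0.0498. Without HFD replicate 2, Plin1 and Pnpla2 passed in edgeR's test as well, with log2 fold changes of -1.15 and -1.10 (adjusted p = 0.0257 and 0.0275). In that fit 3940 of 16298 genes passed, against 2503 of 15751 with all libraries.

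Plin2 encodes perilipin 2, which coats droplets in many cells, lipid-laden macrophages among them (ENSMUSG00000028494, chromosome 4, 86648386 to 86670060). It had 234, 344 and 172 CPM on ND against 1258, 802 and 2397 on HFD. The order of the HFD libraries was the reverse of that of most other genes here, with HFD replicate 3 the highest and HFD replicate 2 the lowest. The log2 fold change was 2.57 (SE 0.46, adjusted p = 0.0145 by edgeR). Leaving out ND replicate 1, ND replicate 3 or HFD replicate 1 gave log2 fold changes of 2.52, 2.32 and 2.64 with adjusted p = 0.0682, 0.0536 and 0.0545, so that 3 of the 6 fits without a library kept the call.

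The other coats did not pass. Plin4 encodes perilipin 4 of the white adipocyte (ENSMUSG00000002831, chromosome 17, 56100591 to 56109803) and had 2034, 1906 and 1798 CPM on ND against 1897, 3062 and 905 on HFD. The HFD libraries lay on both sides of the ND libraries, 3.38-fold apart, against 1.13-fold for ND. Its log2 fold change was 0.03 (SE 0.41, adjusted p = 0.966 by edgeR) and lay below 0 with limma-voom (-0.13), so that no direction can be given. Plin5 encodes perilipin 5 of oxidative tissues, which ties droplets to mitochondria, and its gene lies 1797 bases from Plin4 (ENSMUSG00000011305, chromosome 17, 56111601 to 56117596). It was the least abundant, at 10.2, 14.5 and 13.9 CPM on ND against 10.1, 15.0 and 7.13 on HFD, and its log2 fold change was -0.26 (SE 0.29, adjusted p = 0.566 by edgeR). Cidec, whose protein joins droplets and favours the single large droplet of white fat (ENSMUSG00000030278, chromosome 6, 113424634 to 113435760), had 2277, 2241 and 1991 CPM on ND against 1830, 3037 and 1286 on HFD. Its HFD values enclosed the ND values, as for Plin4, and its log2 fold change was -0.08 (SE 0.32, adjusted p = 0.883 by edgeR).

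**Figure D2:**
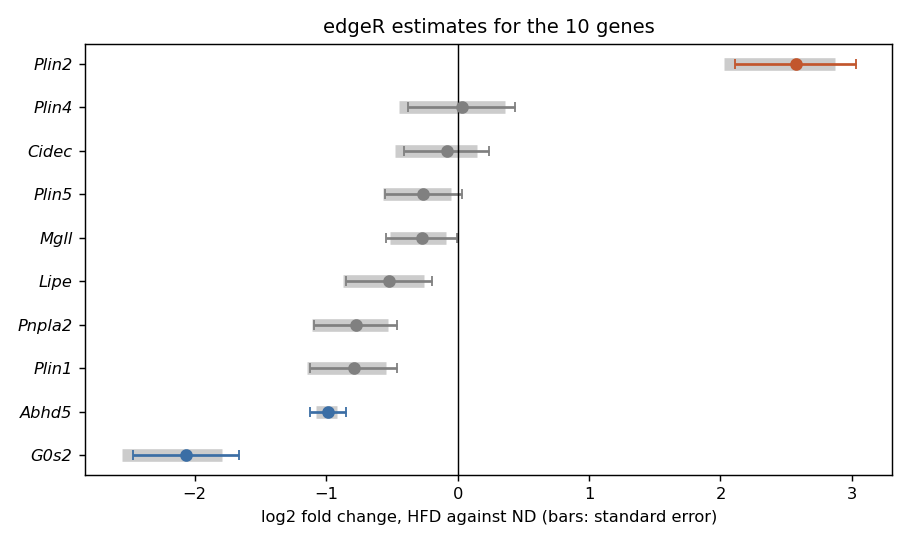
Log2 fold change of HFD against ND for the 10 genes (x axis), with edgeR's estimate as a point, its standard error as a bar and the range of the 6 estimates that each leave out a library as a grey band. Plin2 at 2.57 (orange) and Abhd5 at -0.99 and G0s2 at -2.06 (blue) passed an adjusted p of 0.05, and the bands of Plin4 and Cidec span 0.

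The spread between libraries followed a common order. HFD replicate 2 was the highest HFD library for 9 of the 10 genes, all but Plin2, and HFD replicate 3 was the lowest for 8, all but Plin2 and Abhd5. On ND, replicate 2 was the highest for 7 genes and replicate 3 the lowest for 7. The summed CPM of the adipocyte markers had the same order, with 21683, 27305 and 18001 in HFD replicates 1, 2 and 3 and 37814, 45337 and 33561 in ND replicates 1, 2 and 3, and it kept this order without Cfd. Of the 13 adipocyte markers, 4 (Cfd, Retn, Slc2a4 and Acvr1c) were lower on HFD and 0 were higher in edgeR's test, beside 6.04% and 9.85% of all genes. Both at an unadjusted p below 0.05 and by DESeq2, 5 were lower and 1 was higher. The part of this difference in the values of the 10 genes was not tested, and each gene was also set against the markers within its library.

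Relative to the mean log2 CPM of the 13 adipocyte markers, which was 10.30 on ND and 9.36 on HFD, Plin2 was higher on HFD by 3.42 and G0s2 lower, with -1.22, and neither overlapped between the diets. Mgll, Plin4 and Cidec were higher relative to the markers in every HFD library than in any ND library, with differences of 0.63, 0.80 and 0.77. For these 5 genes the exact two-sided permutation p was 0.1, the smallest that this test allows with 3 libraries against 3, and 0.143 after Benjamini-Hochberg adjustment over the 10 genes, and no other test was run. Without Cfd, a choice made after its values were seen, the marker means were 10.01 on ND and 9.34 on HFD, and the 5 genes still did not overlap, with differences of 3.16, -1.49, 0.36, 0.54 and 0.50 in the same order. Among the markers kept, Retn, Slc2a4 and Acvr1c were also lower on HFD, with log2 fold changes of -2.05, -1.42 and -1.56 (adjusted p = 0.0377, 0.0379 and 0.0339 by edgeR). A fall of the markers raises each difference, so the sizes given here depend on the markers chosen. Differences without Retn, Slc2a4 and Acvr1c were not computed.

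The results of the other 5 genes changed with Cfd or with 1 library, and no other marker was left out in turn. Lipe and Plin5 differed by 0.32 and 0.63 without overlap when Cfd was among the markers, and by 0.05 and 0.36 with overlap when it was not (exact permutation p = 0.6 and 0.2). Pnpla2 and Plin1 differed by 0.09 and 0.07 with overlap (exact permutation p = 0.4 and 0.5), and without Cfd by -0.18 and -0.20, with every HFD library below every ND library (exact permutation p = 0.1). Abhd5 differed by -0.05 (exact permutation p = 1), and this value rested on HFD replicate 3, at -2.09. The other HFD libraries, at -3.09 and -3.26, lay below the ND libraries at -2.86, -2.86 and -2.56, and without HFD replicate 3 the difference was -0.41.

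The levels of the genes were compared per length, as FPKM (fragments scaled to the length of the gene and to the library). On ND, Cidec had the highest level at 1188 ± 95.2 FPKM (SD, n = 3), followed by G0s2 at 880 ± 246, which it overlapped, and by Pnpla2 at 717 ± 87.2, which overlapped G0s2 but not the genes below it. Plin1 (407 ± 64.7), Plin4 (337 ± 23.1) and Mgll (309 ± 50.2) formed a run of overlapping levels below them. Lipe (224 ± 22.4), Plin2 (72.4 ± 25.7), Abhd5 (31.7 ± 2.86) and Plin5 (6.26 ± 1.13) each lay apart from their neighbours in this order.

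On HFD, Cidec was again the highest, with 1112 ± 488 FPKM. The next 7 genes overlapped their neighbours, from Plin2 at 425 ± 234 FPKM and Pnpla2 at 415 ± 168 through Plin4 (341 ± 189), Mgll (253 ± 77.4) and Plin1 (232 ± 98.5) to G0s2 (208 ± 110) and Lipe (154 ± 66.8). Abhd5 (15.9 ± 1.85) and Plin5 (5.18 ± 1.92) stayed lowest and apart. By these means Plin2 stood at rank 8 on ND and rank 2 on HFD, and within HFD replicates 1, 2 and 3 at ranks 3, 7 and 2. G0s2 stood at ranks 2, 3 and 2 within the ND libraries and at ranks 7, 6 and 7 within the HFD libraries, while the coactivator Abhd5 was far below the lipase it serves on either diet.

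Among the 5 perilipins, with Plin3 added, Plin2 made up 7.67%, 10.9% and 6.86% of the summed FPKM in ND replicates 1, 2 and 3 and 38.3%, 20.4% and 67.4% in HFD replicates 1, 2 and 3. Plin1 made up 49.0%, 49.5% and 46.3% on ND and 23.7%, 29.8% and 13.7% on HFD. Neither share overlapped between the diets. The share of Plin4 was 40.3% ± 3.39 (SD, n = 3) on ND and 32.7% ± 16.1 on HFD, with overlap. The summed FPKM of the 5 was 840 ± 107 on ND and 1028 ± 93.7 on HFD. These shares were computed after the values of the genes had been seen and carry no test.

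**Figure D3:**
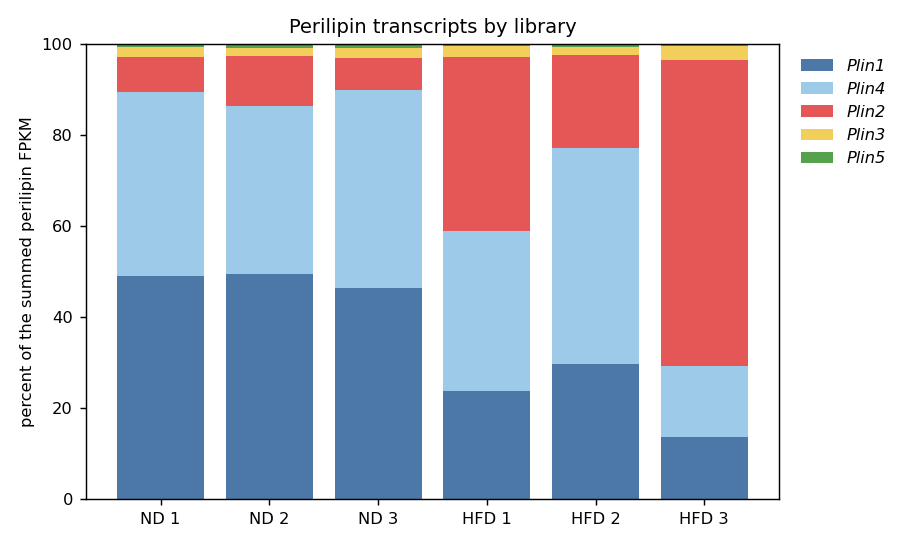
Percent of the summed perilipin FPKM (y axis, from 0 to 100) that each of the 5 perilipin genes takes in each of the 6 libraries (x axis). The Plin2 segment is 6.86% to 10.9% in the ND libraries and 20.4% to 67.4% in the HFD libraries, and the Plin1 segment is smaller in each HFD library than in any ND library. A larger segment of Plin2 makes the others smaller, since each library sums to 100.

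Ratios of 8 pairs of these genes within a library were compared next, since a ratio leaves out what both genes of a pair share. The ratio of Plin2 to Plin1 was 0.157, 0.221 and 0.148 on ND and 1.62, 0.686 and 4.92 on HFD, a log2 difference of 3.35. The ratio of G0s2 to Pnpla2, the inhibitor to its lipase, was 1.75, 0.945 and 1.05 on ND and 0.442, 0.562 and 0.461 on HFD, a log2 difference of -1.31. Neither ratio overlapped between the diets, and the HFD libraries agreed more closely for G0s2 to Pnpla2 than for Plin2 to Plin1.

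The ratio of Abhd5 to Pnpla2, the coactivator to its lipase, was 0.0440, 0.0426 and 0.0465 on ND and 0.0348, 0.0304 and 0.0620 on HFD, with HFD replicate 3 above and the other HFD libraries below all ND libraries (log2 difference -0.14, exact permutation test, two-sided, p = 0.8). Relative to Plin1, Plin4, Plin5 and Cidec were each higher on HFD, with log2 differences of 0.73, 0.56 and 0.70. Along the order of the lipases, Lipe to Pnpla2 was higher by 0.23 and Mgll to Lipe by 0.31. For these 7 ratios without overlap the exact permutation p was 0.1, the smallest possible, and 0.114 after Benjamini-Hochberg adjustment over the 8 ratios. This exact test cannot reach 0.05 with 3 libraries against 3, and no other test of the ratios was run.

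**Figure D4:**
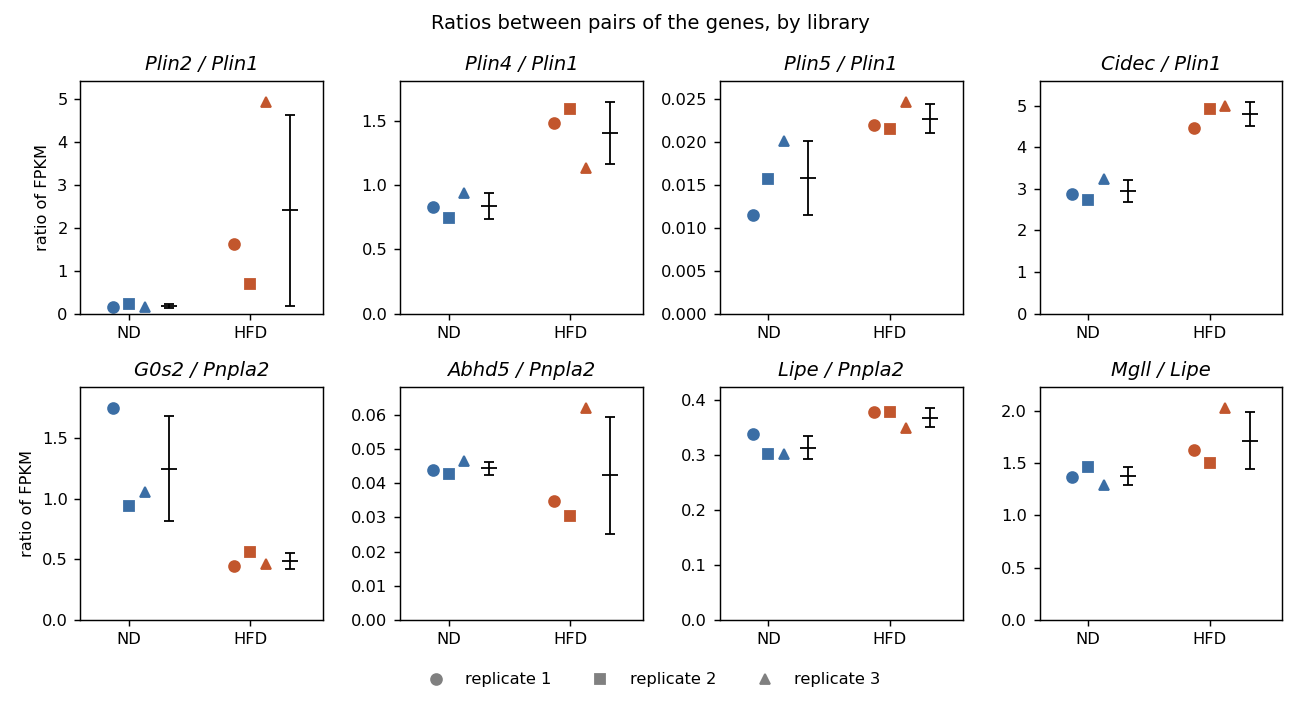
Ratio of FPKM for 8 pairs of genes (y axis, from 0, a scale per pair) in the ND and HFD libraries, with circles, squares and triangles for replicates 1, 2 and 3 and with the mean and SD (n = 3) to the right of each group. The diets overlap only for Abhd5 to Pnpla2, where HFD replicate 3 at 0.0620 is the highest library.

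Since Plin2 is also a gene of lipid-laden macrophages, macrophage markers were set beside it. The summed CPM of 13 macrophage markers, led by Lyz2 and C1qb, was 1930 to 2039 on ND and 5300, 4115 and 9014 in HFD replicates 1, 2 and 3, and 10 of the 13 were higher on HFD in edgeR's test. For 8 markers of lipid-associated macrophages, led by Lgals3 and Gpnmb, the sum was 320 to 466 on ND and 5630, 3151 and 13587 on HFD, and 7 of the 8 were higher. Of all genes tested, 9.85% were higher. No marker of either list was at 0 in all libraries. The HFD libraries had the same order in both sums as in Plin2, with replicate 3 the highest and replicate 2 the lowest. Plin2 CPM divided by the macrophage sum was 0.115, 0.175 and 0.0890 on ND and 0.237, 0.195 and 0.266 on HFD, and divided by the lipid-associated sum it was 0.611, 0.738 and 0.536 on ND and 0.223, 0.255 and 0.176 on HFD. These quotients, also computed after the values had been seen, were thus higher on HFD against the macrophage sum and lower against the lipid-associated sum. The part of macrophages in the Plin2 result was not tested.

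**Figure D5:**
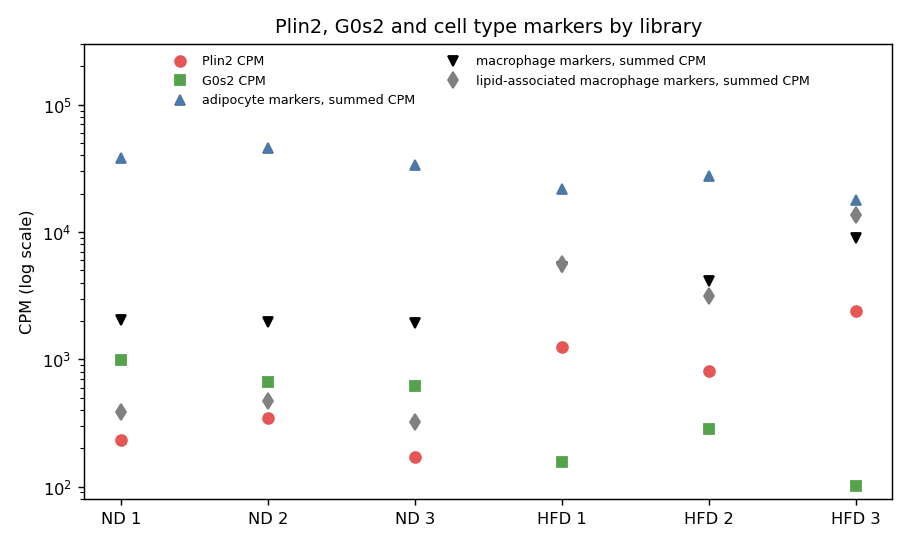
CPM of Plin2 and G0s2 and summed CPM of 13 adipocyte, 13 macrophage and 8 lipid-associated macrophage markers (y axis, log scale) in each of the 6 libraries (x axis). In HFD replicate 3, Plin2 at 2397 CPM and both macrophage sums are at their highest, while G0s2 at 100 CPM and the adipocyte sum are at their lowest.

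Other cell types were checked as well. Of 7 adipocyte progenitor, 6 endothelial, 5 mesothelial and 6 T and B cell markers tested, 0 passed in edgeR's test, and at an unadjusted p below 0.05 and by DESeq2 there was 1, an endothelial marker lower on HFD. Among all genes tested, 15.9% passed in edgeR's test, 34.0% had an unadjusted p below 0.05 and 19.1% passed by DESeq2. The endothelial sum was 547 CPM in HFD replicate 3 against 1000 to 1233 CPM in the other libraries, and the mesothelial sum was 141 there against 207 to 279. The progenitor sum was 1647 to 2121 CPM on ND and 1804 to 1969 on HFD, and the T and B cell sum was 9.13 to 17.6 and 10.98 to 19.7. Of 5 epithelial and cilium markers tested, 0 passed, and 2 were lower at an unadjusted p below 0.05. DESeq2 gave an adjusted p for 2 of the 5 markers, and 0 of those passed. Of the 5 brown adipocyte markers tested, 3 had estimates above 0 and 2 below 0. In edgeR's test 1 of the 5 (Ppargc1a) was lower, and 2 were lower at an unadjusted p below 0.05 and by DESeq2. The sum of all 7 brown adipocyte markers, with the 2 not tested, was 24.5 to 44.6 CPM on ND and 14.8 to 26.0 on HFD. The part of these cells in the results above was not tested.

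The rest of the pathway was then followed in 5 lists of 56 further genes, of which 52 were tested. In all, 7 were higher and 5 lower on HFD in edgeR's test, that is 12 of 52 beside the 15.9% of all genes (9.85% higher and 6.04% lower), and the median log2 fold change was -0.02. Among 14 other droplet proteins tested, 1 rose and 2 fell, and by DESeq2 2 were higher and 2 lower. Hilpda, a small droplet protein that also inhibits adipose triglyceride lipase, had 220, 190 and 201 counts on ND against 698, 762 and 1288 on HFD. Thus this inhibitor was higher in each HFD library, with a log2 fold change of 2.26 (SE 0.26, adjusted p = 0.00624 by edgeR), while G0s2 was lower. Hilpda was highest in HFD replicate 3 (74.0 CPM), the library with the highest macrophage sums, and the part of macrophages in its values was not tested. Bscl2 (seipin) and Tmem159, its partner at sites of droplet formation, fell by 0.72 and 0.71 on the log2 scale (adjusted p = 0.0425 and 0.0191 by edgeR). Hilpda passed whichever library was left out, Tmem159 did not without ND replicates 1 or 2 or HFD replicate 1 (adjusted p = 0.0665 to 0.0872), and Bscl2 passed solely without HFD replicate 2 (0.0119, against 0.0722 to 0.153). Plin3, the perilipin of most tissues, had an estimate of 0.47 (adjusted p = 0.125), Cidea 0.54 (adjusted p = 0.471) and Fitm2 -0.46 (adjusted p = 0.251). Fitm1, with 0 to 9 counts in a library, was too low to test.

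Of the 9 other hydrolases of glycerides and sterol esters, 4 rose and 3 fell in edgeR's test, beside 9.85% and 6.04% of all genes. The estimates were positive for 4 genes and negative for 5. The median log2 fold change of -0.81 was the value of a gene that did not pass, and it gives no common direction for this list. Lipa, the acid lipase of lysosomes, had 77.2, 87.8 and 73.2 CPM on ND against 635, 373 and 1242 on HFD (log2 fold change 3.24, SE 0.44, adjusted p = 0.00791 by edgeR). Nceh1, a cholesteryl ester hydrolase of macrophages, rose 16.02-fold (adjusted p = 0.00735 by edgeR), and Abhd12, which acts on lysophosphatidylserine, rose by 1.53 on the log2 scale. Pnpla7, a lysophospholipase, rose by 0.70. As for Plin2, the highest library of all 4 genes was HFD replicate 3, the library with the highest macrophage sums. The part of macrophages in their values was not tested. Lipa, Nceh1 and Abhd12 passed whichever library was left out, whereas Pnpla7 did not without HFD replicate 1 or any ND library (adjusted p = 0.0561 to 0.1002 by edgeR).

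In contrast, Pnpla3, a relative of Pnpla2, had 442, 629 and 392 CPM on ND against 97.2, 151 and 63.1 on HFD (log2 fold change -2.23, SE 0.35, adjusted p = 0.0107 by edgeR). Ces1f, a carboxylesterase, fell by 1.93 and Ddhd2, a triacylglycerol hydrolase best known in the brain, by 0.81. The libraries of Pnpla3, Ces1f and Ddhd2 had the order seen for most of the 10 genes, with HFD replicate 2 above replicates 1 and 3. Without HFD replicate 1 the adjusted p by edgeR was 0.0575 for Pnpla3, 0.113 for Ces1f and 0.132 for Ddhd2. Ces1f also did not pass without any single ND library (0.0608 to 0.0983), nor Ddhd2 without ND replicates 1 or 2 or HFD replicate 3 (0.0839 to 0.102).

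Of 18 genes of the cyclic AMP and protein kinase A chain, 2 rose and 0 fell by edgeR, beside 9.85% and 6.04% of all genes. At an unadjusted p below 0.05, 3 were higher and 3 lower, beside 18.7% and 15.3% of all genes, and DESeq2 gave 2 higher and 1 lower. Adcy3, an adenylyl cyclase of fat, had 24.4, 20.2 and 17.4 CPM on ND against 42.8, 34.9 and 50.4 on HFD (log2 fold change 1.05, SE 0.18, adjusted p = 0.0138 by edgeR). Pde4d, which breaks down cyclic AMP, rose by 1.03 (adjusted p = 0.0252). Adcy3 did not pass without ND replicates 2 or 3 or HFD replicate 1 (adjusted p = 0.0503 to 0.0649 by edgeR), nor Pde4d without HFD replicate 1 or any ND library (0.0658 to 0.113). Of the 5 genes tested for fatty acid and glycerol handling after lipolysis, 0 passed in edgeR's test, with 1 higher at an unadjusted p below 0.05 and by DESeq2. Of 6 caveolar genes 0 passed, with 2 lower at an unadjusted p below 0.05 and 1 lower by DESeq2.

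Overlapping genes were examined because the kit named in the labels does not state strand. Lipe, Mgll and Abhd5 overlap antisense genes by 918, 167 and 950 exonic bases, and these antisense genes had 23 to 62, 35 to 87 and 0 to 16 counts in a library. Plin4 shares 17 bases with Hdgfl2 on the other strand. The antisense counts were small beside the 8937 to 24522, 15587 to 30879 and 1536 to 3696 counts of Lipe, Mgll and Abhd5, but without strand, reads that both genes could give cannot be told apart.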

How the data were processed

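RNA-Seq of epididymal fat was analysed in 3 ND and 3 HFD samples, grouped by the labels. The authors deposited raw counts per gene and FPKM values (counts scaled to gene length and library) for 54532 Ensembl identifiers, of which 54495 were found in GENCODE M21 (GRCm38). On alignment the sources differ. The study's methods name TopHat and Cufflinks on GRCm38, whereas the submitters' processing notes list CASAVA 1.8, fastp, HISAT2 2.0.5, featureCounts 1.5.0-p3, DESeq2 1.20.0 and a human build, although the identifiers are those of mouse. A gene's count can depend on which was used, and this was not tested. Table columns that belong to other samples numbered 0.

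Counts were tested with edgeR 4.0.16 in R 4.3.3 (TMM, filterByExpr, glmQLFit with robust=TRUE, Benjamini-Hochberg adjustment over all genes tested, threshold 0.05), with diet as the factor. The SE was derived from the F statistic. Ratios of FPKM and differences from markers were tested with exact two-sided permutation tests. As alternatives, limma-voom (limma 3.58.1), DESeq2 1.42.0, other normalizations and filters, robust=FALSE, the replicate block, each library left out, and limma on log2(FPKM + 1) for genes of at least 0.5 FPKM in 3 libraries were run, the last also with 0.1 as pseudocount and with all genes. Methods were tested on simulated data.

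The 10 genes and all lists were chosen with earlier results of these data known. Of other lists, genes past the threshold were named, up to 4 in each direction by p, with Plin3, Cidea, Fitm1 and Fitm2 whatever their p, and of marker lists the 2 highest genes. The adipocyte markers and the brown adipocyte marker that passed were named as well. DESeq2 was run with independent filtering set for 0.05 and then, with those results seen, with its default and without rows of no counts. Both runs are given. Promoter windows were likewise shortened from 300 to 250 bases, to leave out the bases after the RefSeq start, after motif counts had been seen. With 300 bases the GC box was in 7 of the 10 genes, the cyclic AMP core in 3 and the E-box in 3.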

Additional observations from a re-analysis of the deposited data

How the results depend on the processing

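The directions of Plin2, Abhd5, G0s2, Pnpla2, Plin1, Lipe, Mgll and Plin5 were kept under every alternative run. Of 180 estimates for the 10 genes under alternatives, 158 kept direction and side of the threshold, 8 turned direction, 8 lost a call and 6 gained one. The count of genes higher on HFD was 0 instead of 1 on FPKM without a filter, and 0 to 1 with each library left out. The count lower was 4 instead of 2 with DESeq2 (with either filtering), 1 on FPKM without a filter, and 1 to 4 with each library left out. In the 5 further lists, 7 were higher, 9 with DESeq2 (with either filtering), 4 on FPKM without a filter and 4 to 11 with each library left out, and 5 were lower, 8 with DESeq2 (with either filtering), 1 on FPKM without a filter and 0 to 12 with each library left out, the highest counts being those without HFD replicate 2. The estimate of Plin4, 0.03, was -0.13 with limma-voom, -0.15 on FPKM with a pseudocount of 1 or 0.1 and without a filter, and -0.45 to 0.36 with each library left out. That of Cidec ran from -0.47 to 0.15. The log2 ratio of Abhd5 to Pnpla2 ran from -0.45 to 0.066, and the log2 difference of Abhd5 from the adipocyte markers from -0.41 to 0.17. With Cfd taken from the adipocyte markers, chosen after the data were seen, Pnpla2 and Plin1 turned to -0.18 and -0.20. Over all genes, 2503 passed in edgeR's test, 3629 with DESeq2 (3701 with independent filtering set for 0.05), 649 on FPKM without a filter, and 474 to 3940 with each library left out, without HFD replicates 1 and 2, respectively. The causes of these changes were not tested.

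Same-numbered libraries of the diets did not deviate together (correlations of -0.0674, -0.0387 and -0.00211 across genes), so that no pairing by number was seen. Such correlations cannot show that the samples were unpaired. With the replicate block, 1886 genes passed, of which 1693 also passed without it, and Plin4 had an estimate of -0.13. With 3 samples per diet, exact permutation tests cannot go below p = 0.1. Pnpla2 and Plin1 passed in edgeR's test solely without HFD replicate 2, a fit in which 3940 genes passed in place of 2503.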
